A study of Mus musculus with 2 samples.

Results

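Tip cells are the endothelial cells at the front of a sprouting vessel. They extend filopodia, sense guidance cues and growth factors such as VEGF, and are followed by stalk and dividing cells that lengthen the sprout. In wounded peripheral nerve, vessels grow into the bridge of new tissue between the stumps, and Schwann cells and axons later follow them. The cells described here were those that the authors' cell table labels EC_TIP in the injured library, 100 of 2301 annotated cells in the series and of 1362 annotated injured cells kept. They were matched to the count matrices by library and barcode, and a cell was left out where its barcode carried at least 5 times more UMIs (unique molecules counted) in the other library.

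The injured library came from the bridge of adult mouse sciatic nerve 7 days after injury, and the intact library from uninjured adult sciatic nerves. In both, the Cdh5(PAC)-CreERT2 transgene, active in endothelium, had switched on the R26-TomatoLSL reporter, and cells were sorted as TdTomato-positive and negative for the leukocyte protein CD45. Each condition is 1 library of pooled nerves with no replicate, and the sources used here do not state the number of animals, their age beyond adult, or the kind of injury. No test was made, and all 95% intervals cover counting error only. The authors' classes were made from the RNA of these same cells, so each difference between EC_TIP and another class describes the class and is no independent evidence for it.

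The injured library held 2023 barcodes and 27157892 UMIs, and the intact library 1618 barcodes and 9401203 UMIs. They shared 298 barcodes. The 100 injured EC_TIP cells carried 1970991 UMIs in all, 1108 to 72282 each with a median of 16012, and a median of 4042 detected genes. The other 8 injured endothelial classes, called the others below, together had 1174 cells and 18018033 UMIs, with a median of 11539 per cell. Values for single classes are given for the 7 classes of at least 50 cells. EC_BAR (36 cells) and EC_CAP-PV+ (13 cells) enter only the pooled values, except for the barrier sum of EC_BAR. Mitochondrial genes took a median of 3.35% of the UMIs of an EC_TIP cell, with a range of 0 to 12.1%. None of the injured EC_TIP cells was left out. Of their barcodes, 13 also occurred in the intact library, where they carried 1.21 to 1.46% of the injured cell's UMIs, and these were deep cells of 38825 to 72282 UMIs.

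The label was checked against 6 tip markers: Apln (apelin, a secreted peptide), Esm1 (endocan, a secreted proteoglycan), Angpt2 (angiopoietin-2, a ligand of the TIE2 receptor), Kcne3 (a potassium channel subunit), Cxcr4 (the receptor of the chemokine CXCL12) and Pgf (placental growth factor, a ligand of VEGF receptor 1). Summed, they reached 895.5 CPM (UMIs scaled to a class total of 1000000) in EC_TIP (854.2 to 938.3), against 184.8 CPM in the other injured endothelial classes (178.5 to 191.1), a ratio of 4.85 (4.57 to 5.14). The next class was EC_PROLIF, at 251.3 CPM. All but Kcne3 were at least 2-fold higher in EC_TIP. Kcne3 had 5 UMIs in EC_TIP, which was 2.54 CPM against 1.55 CPM in the other classes, too few UMIs to place the class by. Among the 10 genes with the largest ratios at 100 CPM or more, 3 were tip markers (Pgf, Cxcr4 and Esm1) and none was a marker of another cell type.

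Each marker had its own distribution over the classes. Apln stood at 239 CPM in EC_TIP, against 101 CPM in EC_PROLIF, 81.0 CPM in EC_VEN-PV+, 75.1 CPM in EC_CAP-PV-, 65.1 CPM in EC_IMMAT, 6.96 CPM in EC_VEN-PV- and 5.41 CPM in EC_ART. A single EC_TIP cell carried 18.5% of the class's Apln UMIs, and without the 5 deepest cells the log2 ratio of Apln to the other classes was 1.29 in place of 1.79. Esm1 stood at 157 CPM in EC_TIP, against 62.5 CPM in EC_ART, 53.8 CPM in EC_PROLIF, 44.6 CPM in EC_IMMAT and under 10 CPM in the other 3 classes of at least 50 cells. Its second-highest level was therefore arterial, whereas that of Angpt2 was venous. Angpt2 measured 177 CPM in EC_TIP and 98.4 CPM in EC_VEN-PV+, the smallest ratio of the 5 measured markers. Pgf (chromosome 12, 85166635 to 85177790, minus strand) and Cxcr4 (chromosome 1, 128588199 to 128592293, minus strand, both GRCm38) had the largest ratios of the 6. Pgf reached 121 CPM in EC_TIP, 25.7 CPM in EC_CAP-PV-, 17.7 CPM in EC_ART, 12.9 CPM in EC_PROLIF and at most 1.95 CPM in EC_IMMAT, EC_VEN-PV+ and EC_VEN-PV-. Cxcr4 reached 200 CPM in EC_TIP (394 UMIs), 37.9 CPM in EC_ART, 27.6 CPM in EC_CAP-PV-, 22.1 CPM in EC_PROLIF, 15.4 CPM in EC_IMMAT and under 5 CPM in the venous classes.

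**Figure D1:**
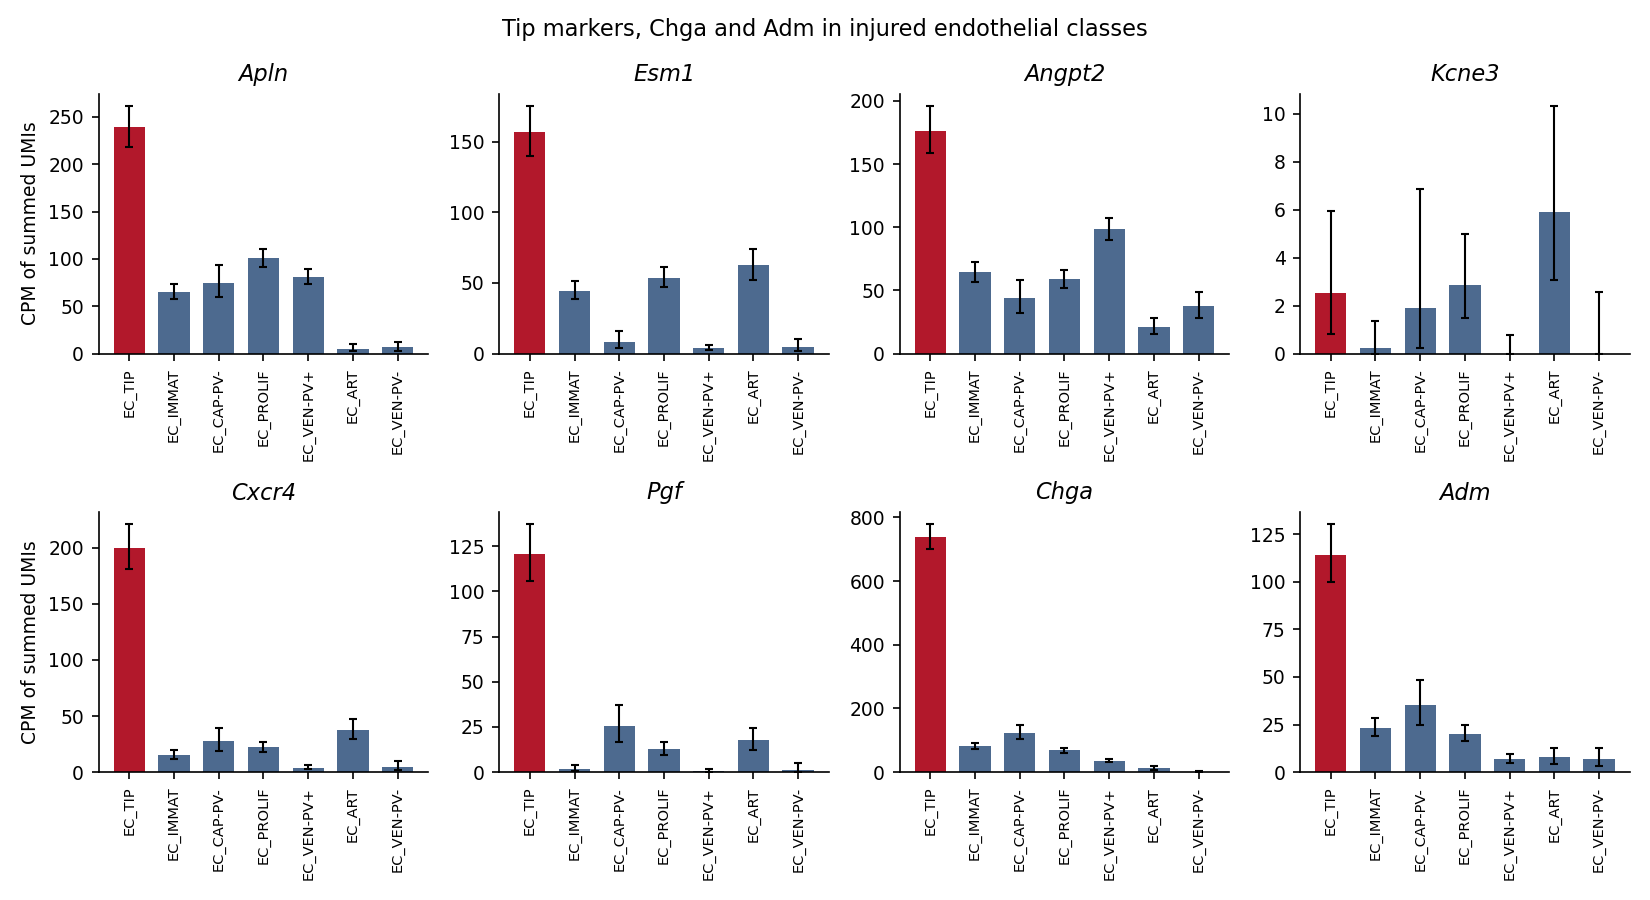
Bars give CPM of summed UMIs in injured cells for the 6 tip markers, Chga and Adm, with EC_TIP in red at the left and the other 6 classes of at least 50 cells in blue; lines are exact 95% Poisson intervals and each panel has its own axis from 0. EC_TIP is the highest class for all panels except Kcne3, where EC_ART has 5.91 CPM and EC_TIP 2.54 CPM.

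Genes were then compared between EC_TIP and the other injured endothelial classes pooled, as a log2 ratio of CPM with 5 CPM added to both. Of 8032 genes whose mean of both values reached 10 CPM, 152 (1.89%) were at least 2-fold higher in EC_TIP and 313 (3.90%) at least 2-fold lower. The median log2 ratio was -0.02, and 80% of genes lay between -0.51 and 0.40. The 15 genes with the largest ratios, all with at least 50 CPM and seen in at least 20% of EC_TIP cells, included Chga, Pgf, Cxcr4, Dapk2, Adm, Nos2, Ptchd4, Lcp2, Fscn1, Esm1, Nox4, Trp53i11, Adamts7 and Gnb4. EC_TIP was the highest of the 7 classes of at least 50 cells for 15 of 15, and at least 2-fold above each of the other classes for 14 of 15. Over all measured genes these counts were 1379 and 47 of 8032. The 15 genes were picked for their high ratio in EC_TIP, so their counts largely follow from the selection and are no added evidence.

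Chga, on chromosome 12 (102554969 to 102565028, plus strand, GRCm38), encodes chromogranin A, a protein of the secretory granules of neuroendocrine cells. It had the largest log2 ratio of all measured genes with 5 CPM added, at 3.66. EC_TIP held 739 CPM (1457 UMIs) and the other classes together 53.8 CPM, a plain ratio of 13.7 (12.7 to 14.9). Some genes of lower level had a larger plain ratio, among them Pgf (121 CPM in EC_TIP, 7.16 CPM in the others). Class by class it measured 124.5 CPM in EC_CAP-PV-, 82.0 CPM in EC_IMMAT, 69.0 CPM in EC_PROLIF, 36.6 CPM in EC_VEN-PV+, 12.3 CPM in EC_ART and 1.39 CPM in EC_VEN-PV-. Its level thus fell away over the classes in nearly the order of their likeness to EC_TIP given below, with EC_CAP-PV- and EC_IMMAT exchanged.

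Secreted and enzymatic products followed. Adm encodes adrenomedullin, a peptide that acts on endothelium through the CALCRL receptor, and measured 114 CPM in EC_TIP against 15.7 CPM in the others (ratio 7.27, 6.07 to 8.69). Nos2, the inducible nitric oxide synthase, had 68.0 CPM in EC_TIP, 24.7 CPM in EC_CAP-PV- and 7.88 CPM in the other classes pooled. Nox4, an NADPH oxidase that produces hydrogen peroxide, had 153 CPM in EC_TIP and 31.7 CPM in the others. Adamts7, a secreted metalloprotease, had 71.0 CPM in EC_TIP and 13.9 CPM in the others. All 4 were therefore more than 4-fold higher in CPM.

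Signalling and structural genes made up most of the remainder. Dapk2, a calmodulin-regulated kinase, measured 161 CPM in EC_TIP and 18.6 CPM in the others. Fscn1, which encodes the actin-bundling protein fascin of filopodia, measured 781 CPM in EC_TIP and 170 CPM in the others, and was seen in 98 of the 100 cells. Trp53i11 was the gene of the 15 that was less than 2-fold above 1 class, with 446 CPM in EC_TIP and 300.4 CPM in EC_CAP-PV-. Lcp2 encodes SLP-76, a signalling adaptor known from blood cells, and measured 55.8 CPM in EC_TIP and 7.88 CPM in the others. Of 8 myeloid markers, 6 including Ptprc, which encodes CD45, had 0 UMIs in EC_TIP, and the other two, Cd68 and Fcer1g, summed to 6.60 CPM in EC_TIP and were part of 9.32 CPM in the other classes. Of the 47 genes at least 2-fold above every class, Kit, a receptor tyrosine kinase (173 CPM in EC_TIP, 64.4 CPM in EC_IMMAT), and F2r, the thrombin receptor PAR1 (79.2 CPM in EC_TIP, 27.4 CPM in EC_PROLIF), are named after their values were seen.

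**Figure D2:**
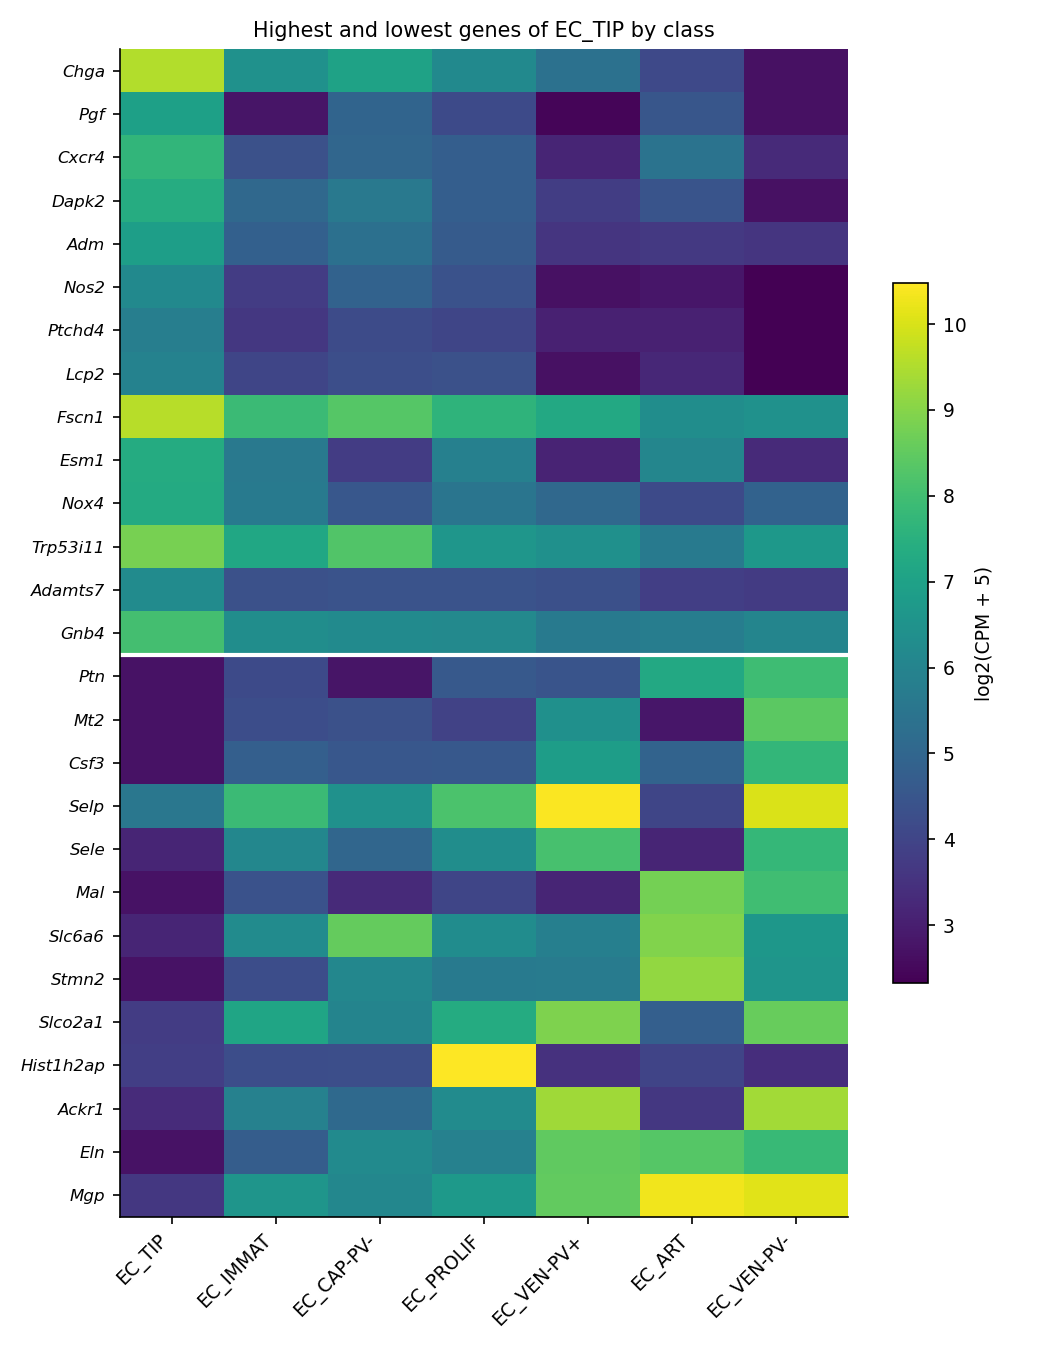
Colour gives log2(CPM + 5) of injured cells for 14 of the 15 genes highest and the 13 genes lowest in EC_TIP against the other classes pooled, with EC_TIP in the left column. The upper block is brightest in EC_TIP in every row, and the rows of the lower block peak in an arterial or venous column, except Hist1h2ap, which peaks in EC_PROLIF.

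Promoter sequences were taken from RefSeq (GRCm38.p6, 250 bases before to 50 after a gene's start) for the 6 markers and the 15 highest genes, 18 genes in all, of which 13 were matched with 16 promoters. Esm1, Cxcr4, Kcne3, Pgf, Chga, Adm, Ptchd4, Fscn1, Nox4 and Trp53i11 held ACGTG or GCGTG, the core letters of hypoxia-response elements, on either strand. This was 12 of 16 promoters, and 43.8% of all 32851 promoters of the table hold one of these words. TGACGT, the core of cyclic AMP response elements, was found in Chga and Fscn1, 2 of 16 promoters, and in 7.51% of all promoters. These matches are letters in a window and say nothing of binding. The promoters of Chga (chr12:102554691-102554990, plus strand) and Fscn1 (chr5:142960105-142960404, plus strand), the 2 genes with the rarer word, are shown with TGACGT or its reverse complement in capitals. In Fscn1 both strands match in overlapping positions. Adm (chr7:110627407-110627706, plus strand), the peptide gene of the hypoxia list, is shown with the reverse complements of the hypoxia words in capitals.
Chga: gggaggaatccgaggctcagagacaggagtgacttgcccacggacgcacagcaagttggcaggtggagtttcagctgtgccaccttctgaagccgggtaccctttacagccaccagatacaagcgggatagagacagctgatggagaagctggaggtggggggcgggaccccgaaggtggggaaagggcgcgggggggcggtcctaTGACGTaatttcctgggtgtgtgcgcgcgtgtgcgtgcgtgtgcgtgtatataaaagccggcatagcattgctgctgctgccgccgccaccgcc
Fscn1: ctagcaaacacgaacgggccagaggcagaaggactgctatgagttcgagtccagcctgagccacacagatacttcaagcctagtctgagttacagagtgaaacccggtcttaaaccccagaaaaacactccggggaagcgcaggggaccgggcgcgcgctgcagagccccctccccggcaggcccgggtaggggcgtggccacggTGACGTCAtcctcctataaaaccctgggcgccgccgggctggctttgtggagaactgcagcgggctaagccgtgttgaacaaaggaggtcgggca
Adm: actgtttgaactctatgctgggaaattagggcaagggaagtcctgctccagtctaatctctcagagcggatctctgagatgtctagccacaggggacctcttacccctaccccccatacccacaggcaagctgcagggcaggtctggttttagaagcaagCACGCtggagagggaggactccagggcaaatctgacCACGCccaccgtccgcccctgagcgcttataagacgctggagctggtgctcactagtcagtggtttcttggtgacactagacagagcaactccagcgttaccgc

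Of the 13 genes lowest in EC_TIP, 12 peaked in EC_ART, EC_VEN-PV+ or EC_VEN-PV-. The 13 were picked for a high level in the pooled others, which include these classes, so the selection favours such peaks. No share over all measured genes is given beside this count. Mgp, the matrix Gla protein that inhibits calcification, had 7.61 CPM in EC_TIP and 401 CPM in the others, 52.7-fold lower (31.9 to 94.2), with 1259 CPM in EC_ART. Eln, which encodes elastin, had 3 UMIs (1.52 CPM) in EC_TIP and 174 CPM in the others, 114.5-fold lower with a wide interval of 39.15 to 556. Ackr1, the atypical chemokine receptor of venules, had 5.07 CPM in EC_TIP and 251 CPM in the others, with 652 CPM in EC_VEN-PV- and 632 CPM in EC_VEN-PV+. The selectins Selp and Sele, which slow leukocytes on the vessel wall, had 41.6 and 4.06 CPM in EC_TIP, against 574 and 123 CPM in the others. Slco2a1, a prostaglandin transporter, had 8.63 CPM in EC_TIP and 231 CPM in the others.

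Transporters, membrane proteins and secreted factors made up the rest. Slc6a6, a taurine transporter, had 4.06 CPM in EC_TIP, 489 CPM in EC_ART and 368 CPM in EC_CAP-PV-. Stmn2, a microtubule regulator known from neurons, and Mal, a membrane proteolipid, each had 3 UMIs in EC_TIP (1.52 CPM) and peaked in EC_ART at 564 and 431 CPM. Csf3, Mt2 and Ptn also had 3 UMIs each in EC_TIP and peaked in EC_VEN-PV-, at 205, 341 and 242 CPM. They encode the neutrophil growth factor G-CSF, a metallothionein and the growth factor pleiotrophin. Hist1h2ap, a histone gene with near-identical copies whose reads cannot be assigned with certainty, had 9.13 CPM in EC_TIP and 1425 CPM in EC_PROLIF. Without EC_PROLIF its log2 ratio was -0.08 in place of -4.61.

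**Figure D3:**
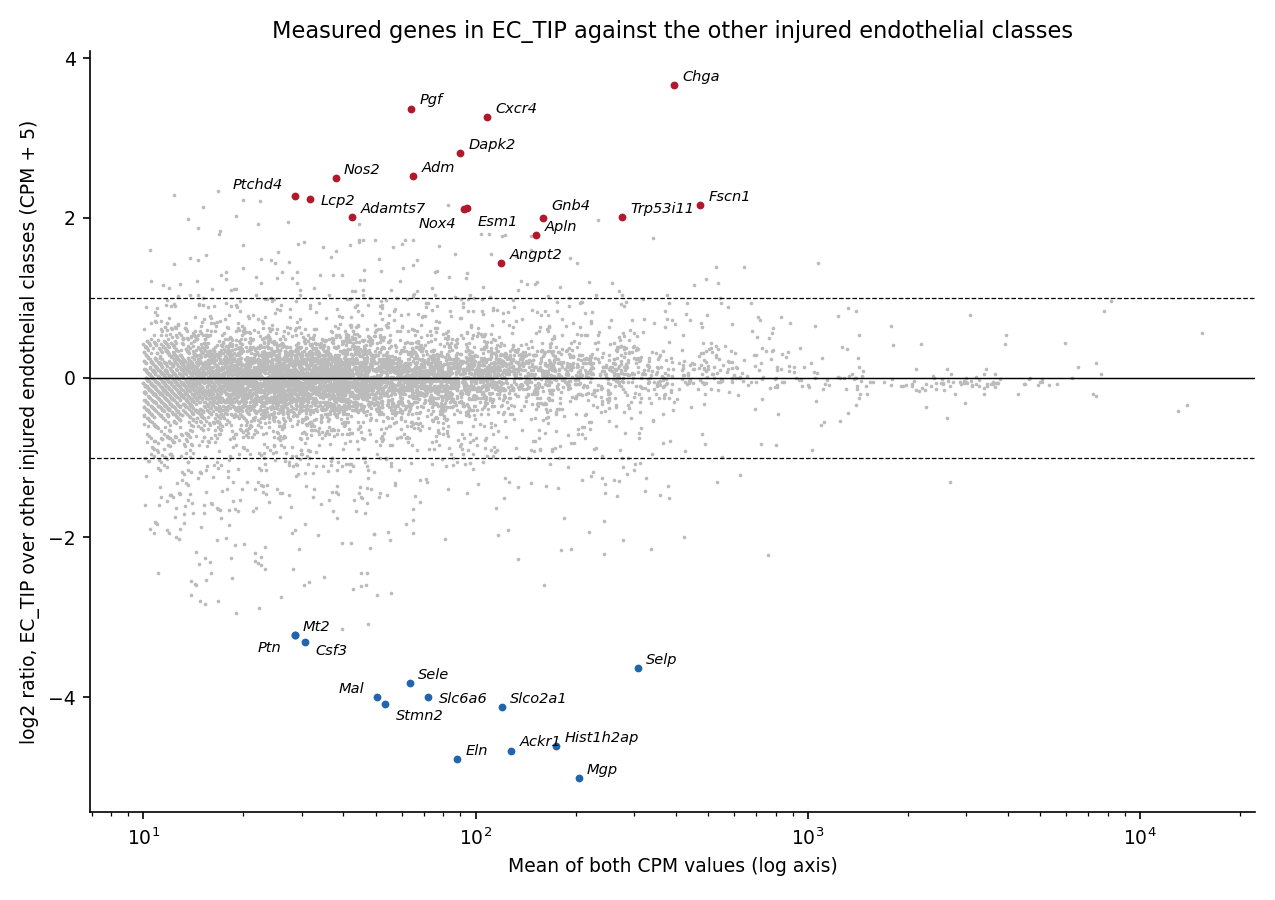
Each grey point is 1 of 8032 measured genes, with the mean of both CPM values on a log axis and the log2 ratio of EC_TIP over the other injured endothelial classes (5 CPM added) on the vertical axis; dashed lines mark 2-fold. Measured tip markers and 14 of the 15 highest genes (red) reach 3.66 for Chga, and the lowest genes (blue) reach -5.01 for Mgp.

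Gene lists were read as counts beside those background shares of 1.89% higher and 3.90% lower. The lists were chosen with earlier results of these data known, so their counts are descriptions and no independent support for the class. Of 20 other genes known from tip cells, 19 were measured, 8 at least 2-fold higher and 1 lower, with a median log2 ratio of 0.77. The higher ones included Igfbp3, an IGF-binding protein (531 CPM in EC_TIP, 154 CPM in the others), Lxn, which encodes the carboxypeptidase inhibitor latexin (286 CPM in EC_TIP, 98.2 CPM in the others, named after its value was seen), and Dll4 and Pdgfb. Adm, Fscn1 and Trp53i11 were also among them, and were already named among the highest genes above. Aqp1, the water channel, was the lower one, at 167 CPM in EC_TIP and 679 CPM in the others.

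VEGF signalling drives sprouting. In this list of 8 measured genes, Pgf was higher and Flt1, the receptor it binds, was lower in EC_TIP (175 CPM, against 475 CPM in the others), as was the ligand Vegfc (4 UMIs or 2.03 CPM, against 21.5 CPM). The main VEGF receptor gene Kdr had 313 CPM in EC_TIP and 350 CPM in the others. Vegfa had 0 UMIs in EC_TIP and 5.05 CPM in the others, and was below the 10 CPM needed to count as measured. In the apelin, angiopoietin and adrenomedullin list of 9 measured genes the ligands Apln, Angpt2 and Adm were higher. Of their receptor genes, Tek, which encodes TIE2, was lower (66.5 CPM in EC_TIP, 144 CPM in the others, log2 ratio -1.06), Aplnr measured 528 CPM in EC_TIP and 512 CPM in the others, and Calcrl measured 88.8 CPM in EC_TIP and 181.5 CPM in the others (log2 ratio -0.99). The 3 ligands were thus highest in the tip class, and none of the 3 receptor genes was 2-fold higher there.

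Notch signalling restrains neighbouring cells from becoming tip cells. Of 12 measured genes 2 were higher and 3 lower. The ligand Dll4 had 134 CPM in EC_TIP and 53.5 CPM in the others, and the receptor Notch4 had 92.3 CPM in EC_TIP and 40.9 CPM in the others. Both were also high in EC_ART, at 170 CPM for Dll4 and 99.4 CPM for Notch4. The ligands Jag1 and Dll1 and the modifier Lfng were lower, with log2 ratios of -1.11, -1.87 and -1.03. In the BMP and TGF-beta list of 17 measured genes, the ligand Bmp2 was higher (89.3 CPM in EC_TIP, 31.4 CPM in the others), and Smad7, Id2, Id3 and the receptor gene Acvrl1 were lower. Bmp2 also reached 101 CPM in EC_ART. Among 7 measured Wnt genes none was higher, and Fzd6 was lower.

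Basement membrane and cytoskeleton lists had medians above 0. In the basement membrane list 15% of measured genes were at least 2-fold higher and 5% lower. In the actin and filopodia list these shares were 7.14% and 3.57%, and over all genes 1.89% and 3.90%. The calls are of few genes. Over all genes, 3742 of 8032 had a log2 ratio above 0. Of 20 measured basement membrane and collagen-processing genes 16 had a log2 ratio above 0, with a median of 0.44. Nid2, which encodes nidogen-2, and the laminin genes Lama4 and Lamb1 were at least 2-fold higher, with log2 ratios of 1.77, 1.43 and 1.09. The collagen gene Col4a1 measured 3912 CPM in EC_TIP and 2264 CPM in the others. Col5a2 was the lower one, at 4.57 CPM in EC_TIP and 153 CPM in EC_ART. Of 28 actin and filopodia genes 21 were above 0, with a median of 0.47, and 2 were at least 2-fold higher, Fscn1 and Myl9. Ezr, which encodes the membrane linker ezrin, was lower, at 12.2 CPM in EC_TIP and 33.1 CPM in the others. Vim, which encodes vimentin, had 10785 CPM in EC_TIP and 5534 CPM in the others, and Actb had 9972 CPM in EC_TIP and 5618 CPM in the others. Myl9, a myosin light chain of contractile cells, had 73.1 CPM in EC_TIP and 18.5 CPM in the others. The 7 mural markers summed to 80.7 CPM in EC_TIP and 58.0 CPM in the others. Of these, Myh11 and Notch3 were at 0 in EC_TIP, Pdgfrb had 1 UMI, and Abcc9 had 23.9 CPM in EC_TIP against 5.38 CPM in the others. The part of mural RNA in the Myl9 ratio was not tested.

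Matrix proteases, integrins and guidance genes gave few calls. Among 16 measured genes of proteases and their inhibitors the metalloprotease gene Adamts1 was lower, at 170.5 CPM in EC_TIP and 402 CPM in the others. Of 10 integrin genes only Itgb4 was called, at 4.06 CPM in EC_TIP and 75.3 CPM in the others. Of 18 guidance genes 0 were higher and 3 were lower, namely Sema3g, Plxna4 and Ephb4. Plxnd1, a semaphorin receptor, measured 472 CPM in EC_TIP and 281 CPM in the others (log2 ratio 0.74). Of 16 genes listed as secreted factors acting on nerve cells 7 were measured. Chga and Pdgfb were higher. Chga encodes a granule protein of neuroendocrine cells, and an action of it on nerve cells was not tested. Ptn and Cxcl12, the ligand of CXCR4, were lower, and Cxcl12 had 88.8 CPM in EC_TIP, 886 CPM in EC_CAP-PV- and 1469 CPM in EC_ART. Bdnf, Gdnf, Artn, Lif and Nrg1 had 0 UMIs in EC_TIP.

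Oxygen-sensing, metabolic and stress lists held few calls. Adm was the only gene at 2-fold among 11 measured genes of oxygen sensing and hypoxia targets, and the median of this mixed list was -0.20. Of 14 glycolysis genes 0 were higher, with a median of 0.07, and the glucose transporter gene Slc2a1 was lower (23.9 CPM in EC_TIP, 70.3 CPM in the others). Of 11 heat shock genes and of 6 antigen presentation genes none was called in either direction. Of 13 immediate early genes Egr1 and Ier3 were lower, with a median of -0.56. Of 13 interferon-stimulated genes Rsad2 was higher (77.6 CPM in EC_TIP), although EC_CAP-PV- had 95.1 CPM. Mest, an imprinted gene active in growing tissue, measured 933 CPM in EC_TIP, 621 CPM in EC_PROLIF and 353 CPM in the other classes pooled.

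Venous and arterial genes were lower or not called in EC_TIP, and capillary and barrier genes went both ways. Of 10 measured venous genes 9 were lower and 0 higher, with a median of -2.08. Of 9 measured arterial genes 5 were lower and 0 higher, with a median of -1.57, among them Gja4, which encodes connexin 37 (6.09 CPM in EC_TIP, 598.5 CPM in EC_ART). The pooled others include the venous classes and EC_ART. The 6 arterial markers summed to 159.8 CPM in EC_TIP, against 151 CPM in EC_IMMAT, 139.9 CPM in EC_PROLIF, 343 CPM in EC_CAP-PV- and 1670 CPM in EC_ART, so EC_TIP was no lower than 2 of its 3 nearest classes. Most of the EC_TIP sum was Fbln5 (114 CPM) and Hey1 (28.4 CPM). Gja4, Gja5, Bmx and Sema3g had 6.09, 2.03, 4.57 and 4.57 CPM in EC_TIP. The 6 venous markers summed to 539 CPM in EC_TIP, against 1880 CPM in EC_IMMAT, 1501 CPM in EC_PROLIF, 1111 CPM in EC_CAP-PV- and 758.5 CPM in EC_ART, so EC_TIP was the lowest of these. Of 8 leukocyte adhesion and chemokine genes 5 were lower, and Icam1, for example, had 83.2 CPM in EC_TIP and 403 CPM in the others. Ackr1, Selp, Icam1 and Vcam1 stand in both the venous and the adhesion list. The 6 capillary markers summed to 1699 CPM in EC_TIP and 1033 CPM in the others, with 4692 CPM in EC_CAP-PV-. Rgcc and Gpihbp1, the endothelial anchor of lipoprotein lipase, were higher in EC_TIP, at 630 and 745 CPM against 278 and 326 CPM in the others. Fabp4, a fatty acid carrier, and Aqp1 were lower. Of 9 measured barrier genes Slc7a5 was higher and Slc2a1 lower, and Mfsd2a and Slco1a4 had 0 UMIs in EC_TIP. The 6 barrier markers summed to 991 CPM in EC_TIP and 751 CPM in the others. By class they summed to 3677 CPM in EC_BAR (36 cells), the highest. Among the classes of at least 50 cells they summed to 2431 CPM in EC_ART, 1155 CPM in EC_CAP-PV- and 825 CPM in EC_VEN-PV-. The sums were 594 CPM in EC_IMMAT, 354 CPM in EC_PROLIF and 194 CPM in EC_VEN-PV+. Most of the EC_TIP sum was Cldn5, the tight-junction claudin, at 896 CPM in EC_TIP and 542 CPM in the others. Abcb1a measured 55.3 CPM in EC_TIP and 115.4 CPM in the others. Plvap, the diaphragm protein of leaky vessels, measured 714 CPM in EC_TIP and 1342 CPM in the others. The 8 pan-endothelial markers summed to 5289 CPM in EC_TIP and 5096 CPM in the others. Among 22 transcription factor genes Prdm1 was higher (110 CPM in EC_TIP, 41.0 CPM in the others), and Nr2f2, which specifies veins, and Foxf1 were lower.

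**Figure D4:**
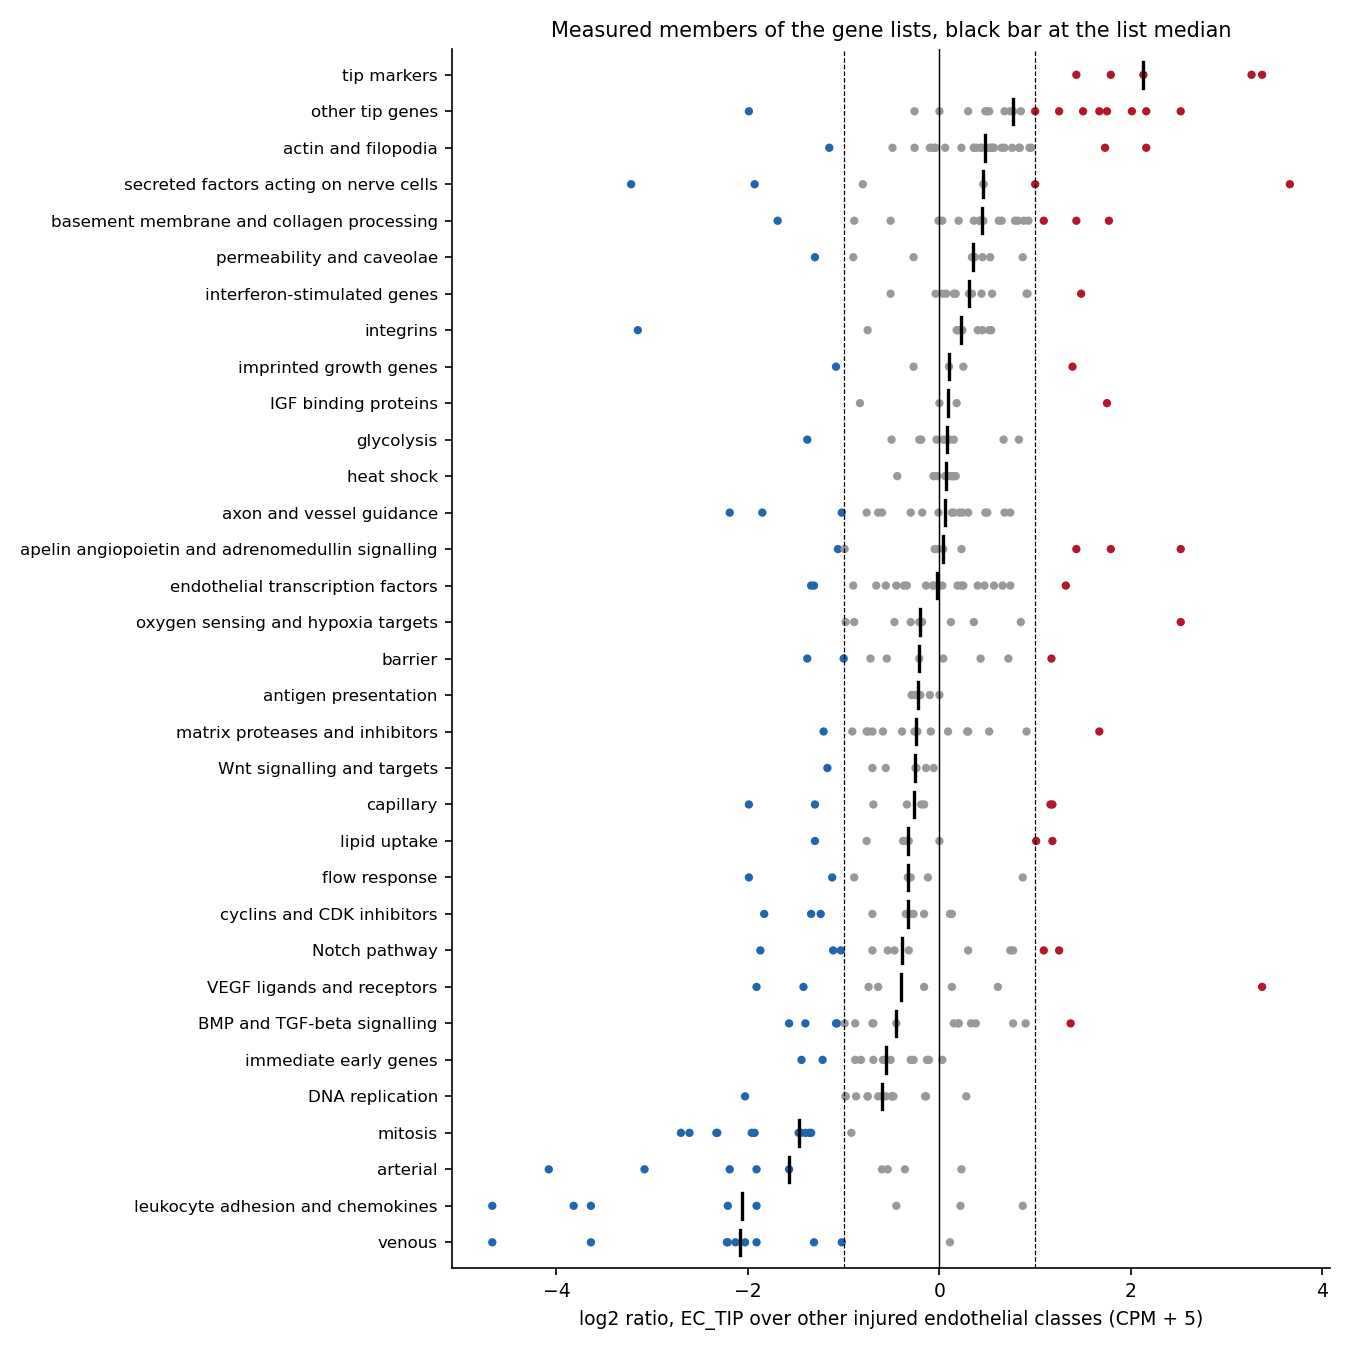
Each point is a measured member of 1 of 33 gene lists, placed by its log2 ratio of EC_TIP over the other injured endothelial classes (5 CPM added), red at 2-fold higher and blue at 2-fold lower; black bars are list medians and lists are ordered by them. Medians run from 2.13 for the tip markers to -2.08 for the venous genes.

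Dividing cells were mostly found in another class. Of 13 measured mitosis genes 12 were lower in EC_TIP and 0 higher, with a median of -1.47, and Top2a, a DNA topoisomerase of dividing cells, had 9.13 CPM in EC_TIP and 81.2 CPM in the others. This direction rested on EC_PROLIF. Without that class the median was 0.69, and without cycling cells on either side it was 0.03. Mki67, which encodes the Ki-67 protein, measured 17.3 CPM in EC_TIP, 314 CPM in EC_PROLIF, 15.1 CPM in EC_IMMAT and 8.41 CPM in EC_VEN-PV+. To compare single cells at 1 depth, each was thinned to 3000 UMIs, which left out 5 EC_TIP cells and 46 others. At least 2 different G2/M genes were then found in 6 of 95 EC_TIP cells (6.32%, 2.35 to 13.2%), 134 of 157 EC_PROLIF cells (85.4%) and 16 of 254 EC_IMMAT cells (6.30%). At 5000 UMIs the shares were 11 of 89 EC_TIP cells (12.4%, 6.334 to 21.04%), 139 of 155 EC_PROLIF cells (89.7%) and 20 of 228 EC_IMMAT cells (8.77%, 5.44 to 13.2%). Free RNA was not measured apart from cells, and its part in these shares was not tested.

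The tip markers were spread unevenly over the cells of the class. After thinning, 76 of 95 EC_TIP cells had at least 1 marker (80.0%, 70.5 to 87.5%) and 19 had at least 3 (20%, 12.5 to 29.5%). In the other classes 365 of 1128 cells had at least 1 (32.4%, 29.6 to 35.2%) and 6 had at least 3 (0.532%, 0.195 to 1.15%). Of those 6 cells, 5 were labelled EC_PROLIF and 1 EC_IMMAT. At 5000 UMIs per cell, 32 of 89 EC_TIP cells (36.0%) and 13 of 155 EC_PROLIF cells (8.39%) had at least 3. No marker was found in 19 of 95 EC_TIP cells at 3000 UMIs and in 11 of 89 at 5000 UMIs.

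Chga was detected in 46 of 95 thinned EC_TIP cells (48.4%, 38.0 to 58.9%), 13 of 71 EC_CAP-PV- cells (18.3%), 32 of 254 EC_IMMAT cells (12.6%) and 0 of 116 EC_VEN-PV- cells, for which the interval runs to 3.13%. Before thinning these cells had median depths of 16208, 12313, 11492 and 10015 UMIs. Among the thinned EC_TIP cells Chga ranged from 0 to 18 UMIs with a median of 0 and a mean of 2.21 (SD 3.31 over cells), and 17 cells had at least 5 UMIs. Fscn1 ranged from 0 to 10 UMIs with a median of 2 and a mean of 2.53 (SD 2.06 over cells), and was detected in 82 of 95 cells (86.3%). At similar means, Chga was thus present in fewer cells and at higher counts where present.

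Chga and the markers did not all fall in the same cells. Pgf was found in 13 of 46 thinned cells with Chga (28.3%) and in 6 of 49 without it (12.2%). Cxcr4 was found in 19 of the 46 (41.3%) and in 14 of the 49 (28.6%). Esm1 went the other way, in 9 of the 46 (19.6%) and in 16 of the 49 (32.7%). At 5000 UMIs Pgf was found in 21 of 47 cells with Chga (44.7%) and in 10 of 42 without it (23.8%). Cxcr4 was found in 30 (63.8%) and 16 (38.1%) of these cells, and Esm1 in 12 (25.5%) and 15 (35.7%). Apln and Angpt2 changed direction with depth. Apln was found in 37.0% of cells with Chga and 40.8% of cells without it at 3000 UMIs, and in 59.6% and 35.7% at 5000 UMIs. Angpt2 was found in 41.3% of cells with Chga and 36.7% of cells without it at 3000 UMIs, and in 38.3% and 42.9% at 5000 UMIs. These counts are small, no intervals are given for them, and cells are not replicates.

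**Figure D5:**
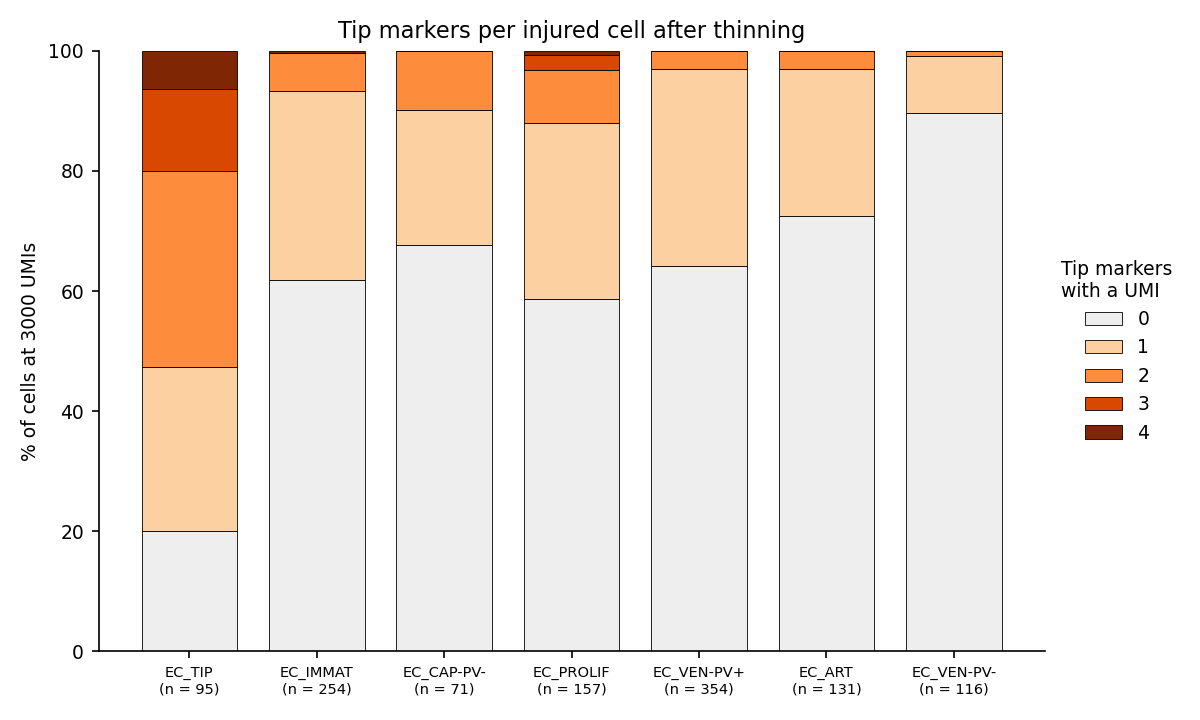
Stacked bars give the share of injured cells with 0 to 4 of the 6 tip markers after thinning to 3000 UMIs, with EC_TIP at the left and the number of cells under each class. EC_TIP has 20% of cells with at least 3 markers, and among the other classes EC_PROLIF (3.19%) and EC_IMMAT (0.394%) have any such cell.

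The class profile of EC_TIP was closest to EC_IMMAT, with a Pearson correlation across 8032 genes of 0.959, followed by EC_CAP-PV- (0.934), EC_PROLIF (0.926), EC_VEN-PV+ (0.908), EC_ART (0.900) and EC_VEN-PV- (0.873). All classes come from 1 library, and genes are not independent replicates. When each thinned cell was assigned to the class profile it correlated with most across 2000 genes, 95 of 95 EC_TIP cells were nearest their own class, to which each cell had contributed. The same was true of 123 of 254 EC_IMMAT cells (48.4%), and 56 of them (22.0%) were nearest EC_TIP. Of the other classes, 11 of 71 EC_CAP-PV- cells (15.5%), 9 of 157 EC_PROLIF cells (5.73%) and no cell of EC_ART or the venous classes were nearest EC_TIP.

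Against EC_IMMAT, 150 of 7859 measured genes (1.91%) were at least 2-fold higher in EC_TIP and 119 (1.51%) lower. The highest were Pgf (121 CPM in EC_TIP, 1.95 CPM in EC_IMMAT), Cxcr4, Chga, Nos2 and Dapk2, and the lowest Slco2a1, Slc6a6, Mgp, Sele and Ackr1. Pgf had 238 UMIs in EC_TIP and 8 UMIs in the 260 EC_IMMAT cells, a ratio of 61.9 (30.9 to 145), the largest of the 5. Against EC_CAP-PV-, 181 of 7912 genes (2.29%) were higher and 328 (4.15%) lower. By log2 ratio with 5 CPM added, Esm1 led the higher ones, with Myl9, Nox4, Cxcr4 and Cd82, a tetraspanin. Esm1 had 157 CPM in EC_TIP and 8.56 CPM in EC_CAP-PV-, a plain ratio of 18.3 (9.53 to 40.45). The plain ratio of Myl9 was larger, at 25.6 (8.59 to 125.7), with 3 UMIs in EC_CAP-PV-. The lowest were Rbp7, a retinol carrier (3 UMIs in EC_TIP, 299 UMIs in EC_CAP-PV-), Slc6a6, Cldn15, Fmo2 and the aquaglyceroporin gene Aqp7, which had 0 UMIs in EC_TIP and 59 UMIs in EC_CAP-PV-. Against EC_PROLIF, 178 of 8093 genes (2.20%) were higher, led by Chga, Cxcr4, Pgf, Dapk2 and Rsad2. There 430 (5.31%) were lower, led by Hist1h2ap, Hist1h1b, Ube2c, Top2a and Hist1h2ae, which serve DNA packing and division and of which the histone genes have near-identical copies. Cxcr4 was among the 5 highest genes in all 3 comparisons, which share the EC_TIP cells.

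EC_TIP made up 100 of 1362 annotated injured cells (7.34%, 6.01 to 8.86%) and 4 of 764 annotated intact cells (0.524%, 0.143 to 1.34%), a ratio of 14.02 (5.31 to 52.5). The intact share depends on shared barcodes. Of 21 intact cells labelled EC_TIP, 17 had 521 to 1341 UMIs and a barcode that carried 69.8 to 82.7 times more in the injured library, where 12 of the partners were themselves EC_TIP. With all annotated cells kept, the ratio was 2.87 (1.78 to 4.85). No EC_TIP cell lay near the threshold of 5, since the largest value kept was 0.0146 and the smallest left out 69.8. With 1 library each, injury cannot be told apart from differences in animals, sort or run.

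The 4 intact EC_TIP cells held 12927 UMIs in all, of which 27 came from tip markers (2089 CPM, 1376 to 3039), against 95.4 CPM in 714 other intact endothelial cells (86.6 to 105). Apln gave 17 of the 27 UMIs, Esm1 4, Angpt2 3, Pgf 2, Cxcr4 1 and Kcne3 0. Chga had 1 UMI in these cells and 0 among 4529298 UMIs of the other intact endothelial cells. Adm had 6 UMIs among the 12927 of the 4 cells. In the other intact endothelial cells it had 90 UMIs among 4529298, which was 19.9 CPM. The 17 cells left out held 10 Chga UMIs among 13653. With 4 cells, no gene level of intact tip endothelium could be set beside that of the injured bridge.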

How the data were processed

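Each deposited matrix holds raw UMI counts for every gene and barcode, which the authors did not normalize. Its header names Cell Ranger 3.0.2. The submitters' processing notes also list Cell Ranger 6.1.2, Seurat 4.0.1, mm10 and GRCm38. The authors' filters, doublet handling and classing are unstated in these sources, and no doublet caller was run. Gene positions come from GENCODE M21, in which 50604 of 53380 features (94.8%) had the same ID and version.

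UMIs were summed over a class and scaled to CPM, and 5 CPM were added before log2 ratios. Genes with a mean of 10 CPM or more were used, and calls were made at 2-fold. Intervals were exact: Poisson for CPM, conditional binomial for ratios and Clopper-Pearson for shares. With 1 library per condition no test was possible. Cells were thinned without replacement (seed 1), and cells with at least 2 of 16 G2/M genes counted as cycling. The ratios, their intervals and the 2-fold calls were tested on simulated class sums with Poisson counting error only. The simulation held no single cells, so it did not test the thinning, the shares of cells or the spread between cells.

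Named genes were the 6 markers, the 15 highest and 12 lowest log2 ratios (13 with a tie) at 50 CPM and 30 UMIs or more on the higher side, up to 5 members per direction of each list or else its 3 most abundant, and 5 per direction against each of the 3 nearest classes. The 15 highest were also seen in at least 20% of EC_TIP cells. Mitochondrial, ribosomal protein, predicted, haemoglobin, immunoglobulin and sex-linked control genes were not eligible. A few genes that the rule selects are not reported here. Other genes named were chosen after their values were seen. The members, the 33 gene lists and the marker sets were chosen with earlier results of these data known. Alternatives changed the weighting, pseudocount, filter, scaling, depth, shared barcodes, mitochondrial share, cycling cells or deep cells. Python 3.11.15, NumPy 2.4.6, SciPy 1.17.1, pandas 2.3.3 and matplotlib 3.10.9 were used.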

Additional observations from a re-analysis of the deposited data

How the results depend on the processing

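No paired analysis was possible because each condition is 1 library. The 15 highest genes stayed at least 2-fold higher in all 240 values under the alternatives tried (log2 ratios 1.38 to 3.90), and the lowest genes in 206 of 208 (-6.12 to -0.08), the exceptions being Hist1h2ap without EC_PROLIF (-0.08) and without cycling cells (-0.81). The count of genes at least 2-fold higher, 152, was 80 with 20 CPM added, 74 at a mean of at least 50 CPM and 292 after thinning to 3000 UMIs. The count of lower genes, 313, was 152, 97 and 599 under the same settings, and 481 with only the EC_TIP cells under the median depth, an alternative chosen after seeing the data. The ratio of summed tip markers, 4.85, was 5.36 as a mean over cells, 6.50 with classes weighted equally, 5.30 without cycling cells, 5.44 without EC_PROLIF, 4.29 without the 5 deepest EC_TIP cells and 4.03 in the EC_TIP cells under the median depth. At a mean of at least 50 CPM the correlations with EC_CAP-PV- and EC_PROLIF were both 0.917 and exchanged ranks. The ratio of shares was 2.87 with all annotated cells, and the share with at least 3 markers 36.0% at 5000 UMIs. The median of the mitosis list, -1.47, reversed to 0.03 without cycling cells and to 0.69 without EC_PROLIF, the class that holds most of them. Of the 496 values of single named genes 79 moved by more than their counting error and 5 changed sign, all of them of Kcne3, which was too thin to count as measured. List medians were less stable: of 528 values 246 moved by more than the counting error of the summed list, the 2 mitosis values reversed, and 27 in all changed sign, mostly of medians near 0. Larger changes of sign were the Notch list (-0.40) at 0.76 with a mean of at least 50 CPM, DNA replication (-0.60) at 0.17 without EC_PROLIF, interferon-stimulated genes (0.31) at -0.01 with equal class weights and -0.05 without shared barcodes, and nerve factors (0.46) at -0.02 with no filter. The arterial median (-1.57) was -0.48 with 1 gene lower at a mean of at least 50 CPM. Thin counts limit genes below 10 CPM, Kcne3 among them, and the 4 intact cells.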
